A study of Homo sapiens with 9 samples.

Results

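Early-response transcription factors were followed in WA09, an established line of human embryonic stem cells. They are the EGR zinc finger factors with their NAB corepressors, the NR4A orphan nuclear receptors, and SRF, the factor that switches many such genes on. These genes were chosen with earlier results of these data known, so their counts beside all genes are a description and no test. All probe sets that the platform annotation gives to EGR1, EGR2, EGR3, NAB1, NAB2, NR4A1, NR4A2, NR4A3 or SRF alone were taken, whatever their values. This gave 21 probe sets for 8 of the 9 genes, among 19775 genes with a probe set of their own. EGR2 has no entry of its own in the annotation used and was not analysed here.

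The series compared DNA damage, differentiation and pluripotency, with 3 Affymetrix arrays for each condition. The damage arrays hold cells treated for 5 h with DOX, read here as doxorubicin, which traps topoisomerase II on broken DNA. The differentiating arrays hold cells given 1 µM retinoic acid (RA) for 2 days in medium to which no FGF was added, so RA and the absence of added FGF cannot be told apart. The pluripotent arrays hold cells labelled as pluripotent, with neither agent named. All arrays come from 1 cell line, and the labels do not say which arrays came from cultures on irradiated mouse feeder cells and which from feeder-free cultures, and they do not say whether replicate arrays were grown as separate cultures. The spread that the p-values rest on is therefore that between these arrays alone and may be technical.

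Immediate-early genes are transcribed within minutes of a stimulus without new protein synthesis. ERK signalling phosphorylates partners of SRF at CArG boxes, the sequence SRF binds, and CREB acts at cyclic AMP response elements. EGR proteins bind GC-rich sites, and they raise NAB2, whose product binds EGR proteins and limits their activity. NR4A receptors have no known activating ligand in the classical sense and are regulated mainly by how much of them is made. In pluripotent stem cells, added FGF keeps ERK signalling active.

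Promoters are shown first, so that the elements each gene carries can be set beside its values. RefSeq windows on GRCh38.p14 were matched for 6 of the 8 genes, and 4 of them are given here as the 250 bases before the annotated start of the gene, all on the plus strand. Capitals mark CArG boxes, the EGR site GCGNGGGCG and the core of the cyclic AMP response element (CRE core) TGACG, searched on both strands, where TGACG reads CGTCA on the other strand. The windows lie at chr5:138465229-138465478 for EGR1, chr6:43171019-43171268 for SRF, chr12:57088864-57089113 for NAB2 and chr9:99821635-99821884 for NR4A3.
EGR1: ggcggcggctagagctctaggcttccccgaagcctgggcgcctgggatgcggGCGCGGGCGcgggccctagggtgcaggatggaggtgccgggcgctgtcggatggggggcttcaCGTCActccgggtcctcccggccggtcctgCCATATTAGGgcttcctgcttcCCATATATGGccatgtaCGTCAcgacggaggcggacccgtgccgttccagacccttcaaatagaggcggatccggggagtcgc
SRF: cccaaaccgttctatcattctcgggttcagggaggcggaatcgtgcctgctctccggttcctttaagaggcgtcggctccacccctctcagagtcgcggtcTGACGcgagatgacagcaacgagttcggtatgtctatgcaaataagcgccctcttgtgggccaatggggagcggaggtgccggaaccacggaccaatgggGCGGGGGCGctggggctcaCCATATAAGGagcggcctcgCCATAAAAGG
NAB2: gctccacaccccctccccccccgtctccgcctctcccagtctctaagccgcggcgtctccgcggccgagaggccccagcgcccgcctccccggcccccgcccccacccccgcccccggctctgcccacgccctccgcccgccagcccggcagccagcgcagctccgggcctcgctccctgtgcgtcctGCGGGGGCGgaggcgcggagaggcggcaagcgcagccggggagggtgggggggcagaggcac
NR4A3: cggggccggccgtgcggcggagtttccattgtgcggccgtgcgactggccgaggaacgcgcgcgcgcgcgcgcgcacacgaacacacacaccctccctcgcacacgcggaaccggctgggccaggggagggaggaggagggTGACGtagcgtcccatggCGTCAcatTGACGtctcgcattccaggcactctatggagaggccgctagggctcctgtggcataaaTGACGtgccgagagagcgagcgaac

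EGR1 and SRF each held 2 CArG boxes. In EGR1 they began 105 and 83 bases before the start, and in SRF 30 and 10 bases before it. Of 35116 windows of this length, 1.16% held a CArG box and 0.0313% (11 windows) held at least 2. EGR1 also held 2 CRE cores and 1 EGR site, SRF 1 of each, and NAB2 a single EGR site 62 bases before the start. NAB1 held 2 overlapping EGR sites and no CArG box. NR4A3 held 4 CRE cores and no CArG box. An EGR site was found in 8.41% of all windows and a CRE core in 21.2%, while 4.76% of all windows held at least 2 CRE cores. The full element TGACGTCA (1.65% of windows, and holding the CRE core on both strands) and the NR4A element AAAGGTCA (1.05%) were not among the letters of the 6 genes' windows at their annotated starts. The NR4A1 window at its annotated start held none of the motifs searched, and neither did its other window, at chr12:52037465-52037714. The rest of this 36672-base gene was not searched, so a motif at a start elsewhere in it would not be seen. A match describes the letters of a window and is not shown to be bound.

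**Figure D1:**
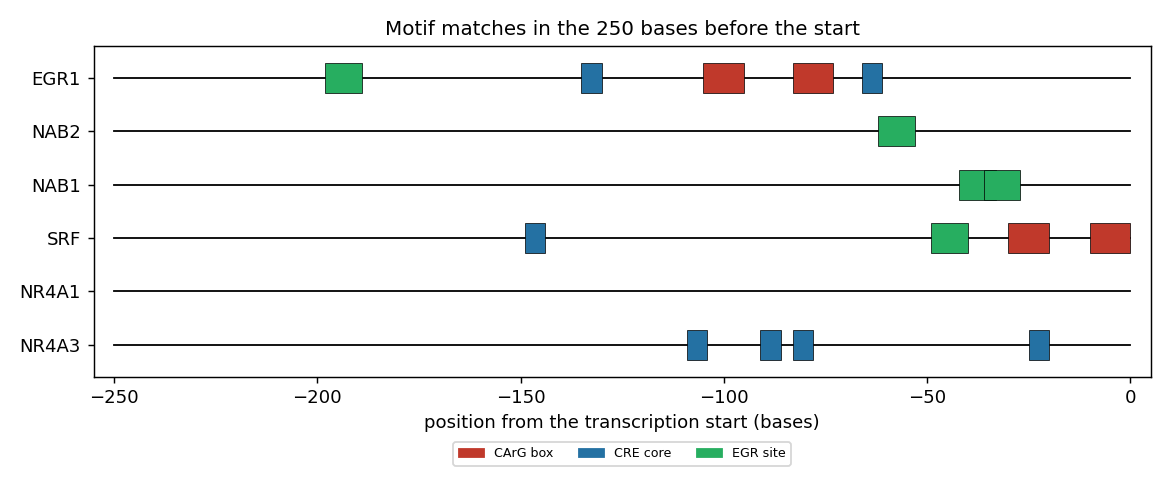
Motif matches in the 250 bases before the annotated start of 6 genes, with the distance from the start in bases on the x axis. Red boxes are CArG boxes, blue boxes CRE cores and green boxes EGR sites. EGR1 and SRF are the genes with 2 CArG boxes, NR4A3 has 4 CRE cores and NR4A1 has no match in the window drawn.

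Genes known to answer each treatment moved on the arrays labelled with it. Array medians lay at 4.62 to 4.68 on every array, and arrays of 1 condition correlated at 0.994 to 0.997 across probe sets. The p53 targets CDKN1A and MDM2 rose by 3.71 and 2.02 on the log2 scale after DOX, and the retinoid genes CYP26A1 and RARB by 1.64 and 2.21 after RA. CDKN1A and MDM2 also rose after RA, by 0.92 and 0.42, and leaving out the third pluripotent array reduced the calls after RA among these 4 genes to 3. All 6 measured markers of pluripotent cells lay above the array median on every array. SOX2 fell by 0.46 after DOX and 0 markers rose, where 7.4% of all genes fell and 4.67% rose. After RA 0 markers were called, where 4.84% of all genes were (limma, 2 higher and 1 lower at an unadjusted p under 0.05). The third pluripotent array carried the lowest array weight, 0.578, against 1.44 and 1.47 for the others of its condition. Of 12 fibroblast markers, 2 rose after DOX and 0 fell (COL1A1 by 1.08 and TWIST1 by 1.41), and 2 rose after RA and 0 fell by limma's test (COL1A1 by 1.00 and COL3A1 by 0.57), where 4.67% and 2.42% of all genes rose. At an unadjusted p under 0.05, 5 were higher and 1 lower after DOX, and 2 higher and 1 lower after RA. The mean level of the 12 markers was 6.34 to 6.37 on DOX arrays, 6.13 to 6.20 on RA arrays and 6.06 to 6.14 on pluripotent arrays. Of these markers, 9 lay above the array median on every DOX array, 8 on every RA array and 7 on every pluripotent array. In each condition 3 of the markers were below it on every array. Their part in the results below was not tested. Levels below are RMA values on the log2 scale, changes are differences of such values with limma's standard error, and a gene is said to have risen or fallen where limma's adjusted p over 54613 probe sets was under 0.05.

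After 5 h of DOX the EGR genes rose steeply, their NAB corepressors and SRF rose less, NR4A1 rose slightly, and NR4A2 and NR4A3 did not pass the test. Of the 21 probe sets 9 rose, where 3.2% of all probe sets did, and 0 fell (limma, with 0 also at an unadjusted p under 0.05). Among all probe sets 4.52% fell, so that 7.71% were called in either direction. By the brightest probe set of each gene 6 of the 8 genes rose, where 4.67% of all genes rose and 7.4% fell. Earlier results were known when the genes were chosen, so these shares describe them and are no test. The DOX arrays all lay above the pluripotent arrays for 12 of the 21, and for 21.3% of all probe sets the arrays of the conditions did not overlap in either direction. The median change of the 21 was 0.38, against 0.01 for all probe sets. In such bulk samples, more cells expressing a gene and more RNA per cell cannot be told apart.

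**Figure D2:**
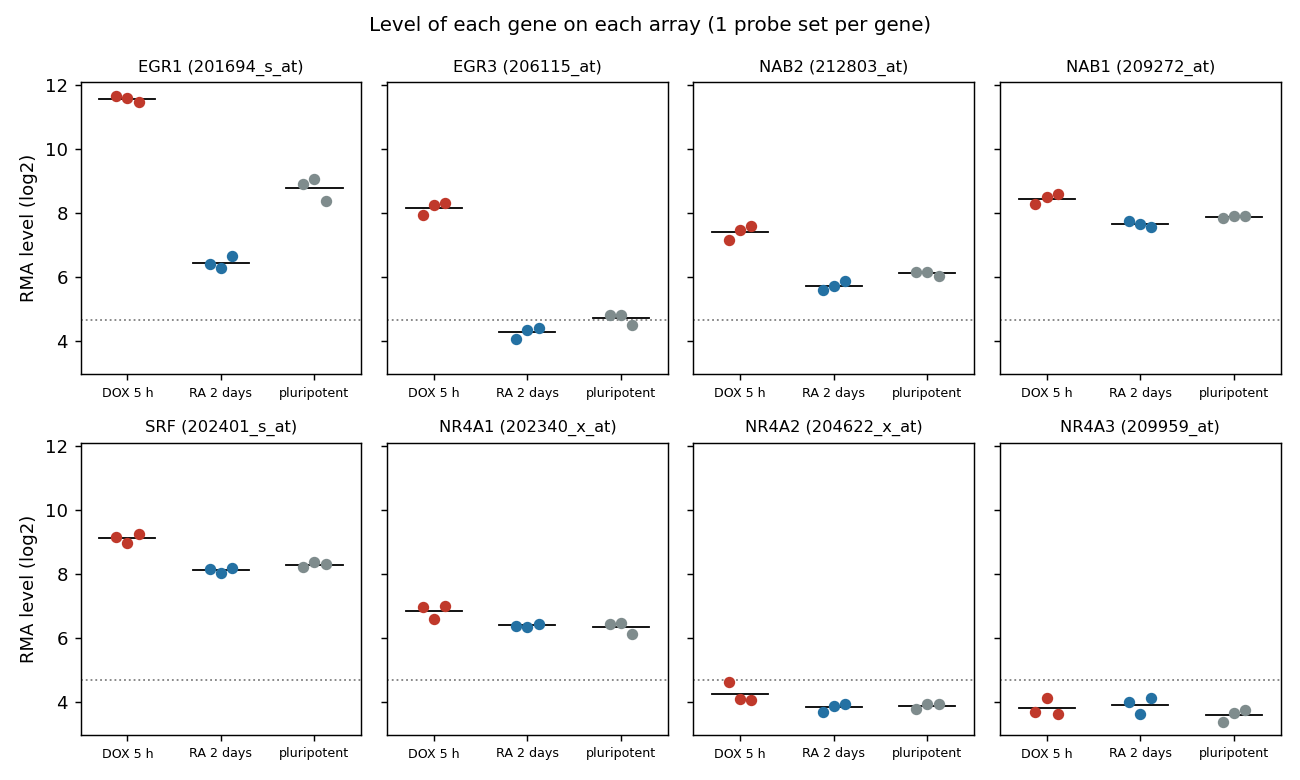
Level of each gene on each array, as the RMA value on the log2 scale, by 1 probe set per gene (the brightest). Points are arrays, black bars the mean of 3, and the dotted line is the middle of the arrays' median levels. EGR1 and EGR3 stand far above both other conditions on the DOX arrays, EGR1 is lowest on the RA arrays, and NR4A2 and NR4A3 lie below the dotted line. Levels of different probe sets are not comparable with each other.

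EGR1 (chr5:138465479-138469303), which encodes a zinc finger activator that many growth and stress signals induce, moved in opposite directions under the treatments. Its brightest probe set, 201694_s_at, read 11.67, 11.59 and 11.47 on the DOX arrays, 6.40, 6.27 and 6.64 on the RA arrays, and 8.89, 9.05 and 8.39 on the pluripotent arrays. No array of any condition overlapped with another condition. The change was 2.80 ± 0.16 (SE) after DOX, a 6.97-fold rise (adjusted p = 1.38e-06), and −2.34 ± 0.16 after RA, a 5.06-fold fall (adjusted p = 1.21e-05).

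The other EGR1 probe sets gave the same order of conditions. Probe set 201693_s_at read 8.83, 8.84 and 8.99 with DOX, 4.99, 4.95 and 5.13 with RA, and 6.16, 6.16 and 5.91 in pluripotent cells. Probe set 227404_s_at read 10.54, 10.59 and 10.39 with DOX, 5.30, 5.35 and 5.22 with RA, and 7.31, 7.76 and 6.79 in pluripotent cells. Across the 3 probe sets the rise after DOX ran between 2.80 and 3.22 and the change after RA between −2.34 and −1.06 on the log2 scale, so the size of the fall depended on the probe set. The lowest pluripotent reading on each of the 3 probe sets came from the third array. Its omission left the brightest probe set at −2.53 after RA and at 2.61 after DOX.

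EGR3 (chr8:22687659-22693480), a close relative of EGR1 that binds the same sites, had the largest rise after DOX among the 8 genes. Its probe set 206115_at read 7.94, 8.23 and 8.31 on the DOX arrays, 4.06, 4.33 and 4.40 on the RA arrays, and 4.80, 4.80 and 4.50 on the pluripotent arrays. The rise after DOX was 3.46 ± 0.13 (adjusted p = 8.18e-08), which ranked 8 among the 19775 genes, where EGR1 ranked 23. The pluripotent level is close to the array median and is not shown to be above background, where the array compresses differences such as this 11-fold one. After RA, EGR3 read below every pluripotent array but missed the test (−0.44, 95% confidence interval −0.72 to −0.15, adjusted p = 0.127). With array weights it passed (−0.50, adjusted p = 0.0358).

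The NAB corepressors, which bind EGR proteins and limit transcription from EGR sites, rose after DOX on the brightest probe set of each gene. NAB2 (chr12:57089114-57095476) read 7.17, 7.47 and 7.59 with DOX, 5.60, 5.73 and 5.86 with RA, and 6.15, 6.15 and 6.03 in pluripotent cells on probe set 212803_at. It rose by 1.30 ± 0.11 (adjusted p = 4.23e-05), and the second probe set, 216017_s_at, rose by 0.67 ± 0.11 (adjusted p = 0.00261). After RA, NAB2 lay below every pluripotent array on 212803_at without passing the test (−0.38, interval −0.63 to −0.13, adjusted p = 0.131), and 216017_s_at was at −0.01 with an interval of −0.24 to 0.22.

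NAB1 (chr2:190648895-190692766), the constitutive relative of NAB2, rose less. On 209272_at it read 8.27, 8.50 and 8.58 with DOX, 7.74, 7.67 and 7.56 with RA, and 7.84, 7.92 and 7.90 in pluripotent cells. That is a rise of 0.56 ± 0.09 after DOX (adjusted p = 0.00337). The change fell to 0.31 when the 4 NAB1 probe sets were averaged (adjusted p = 0.0396). The other 3 probe sets gave 0.38, 0.29 and 0.01 after DOX and did not pass, and the last of these, 239875_at, lay below the array median on every array. No NAB1 probe set passed after RA, where changes ran between −0.24 and 0.08.

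SRF (chr6:43171269-43181506), a MADS-box factor that acts upstream of EGR genes and also drives actin cytoskeletal genes, rose after DOX. On 202401_s_at it read 9.14, 8.95 and 9.25 with DOX, 8.14, 8.02 and 8.18 with RA, and 8.21, 8.35 and 8.29 in pluripotent cells. The RA arrays all lay just below the pluripotent arrays and the DOX arrays well above both. The rise was 0.83 ± 0.09 (1.77-fold, adjusted p = 0.000268), while the change after RA was −0.18 (interval −0.38 to 0.03, adjusted p = 0.5). The dimmer probe set 202400_s_at was at 0.32 after DOX and missed the test (adjusted p = 0.244), but passed without the second DOX array (0.49, adjusted p = 0.0389).

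NR4A1 (chr12:52022832-52059503), also known as NUR77, gave the weakest call among the genes that rose. On 202340_x_at it read 6.96, 6.57 and 7.003 with DOX, 6.37, 6.35 and 6.42 with RA, and 6.42, 6.46 and 6.11 in pluripotent cells. The DOX arrays lay above the pluripotent arrays by a narrow margin. The rise after DOX was 0.52 ± 0.13 (adjusted p = 0.0304). It missed the threshold in fits without DOX replicate 1 or 3 (adjusted p = 0.0978 and 0.115), without pluripotent replicate 1 or 3 (0.0625 and 0.0796), and when the RA arrays were left out of the fit (0.0856). The other probe sets were at 0.17 (210226_at) and 0.18 (211143_x_at) after DOX and did not pass. Averaged over its 3 probe sets, the gene was at 0.29 and passed (adjusted p = 0.00602). The ending x_at marks probe sets whose probes can also match other transcripts.

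NR4A2 (chr2:156324437-156332721), known as NURR1, and NR4A3 (chr9:99821885-99866891), known as NOR1, were dim throughout. All 6 of their probe sets lay below the array median on every one of the 9 arrays, so they are not shown to be above background, and a change at these levels would be compressed. On 204622_x_at NR4A2 read 4.62, 4.08 and 4.04 with DOX, 3.69, 3.85 and 3.91 with RA, and 3.76, 3.94 and 3.92 in pluripotent cells. The DOX arrays lay above the pluripotent arrays, but the change of 0.38 missed the test (interval 0.06 to 0.69, adjusted p = 0.161), and it was 0.19 without DOX replicate 1, the highest of the arrays. NR4A3 on 209959_at read 3.68, 4.11 and 3.62 with DOX, 4.00, 3.61 and 4.11 with RA, and 3.37, 3.66 and 3.73 in pluripotent cells. All 3 conditions overlapped, and its change was 0.22 after DOX (interval −0.14 to 0.57) and 0.32 after RA (interval −0.04 to 0.67). The remaining 4 probe sets of the pair changed by −0.06 to 0.14 after DOX and by −0.26 to −0.02 after RA, none of them called.

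**Figure D3:**
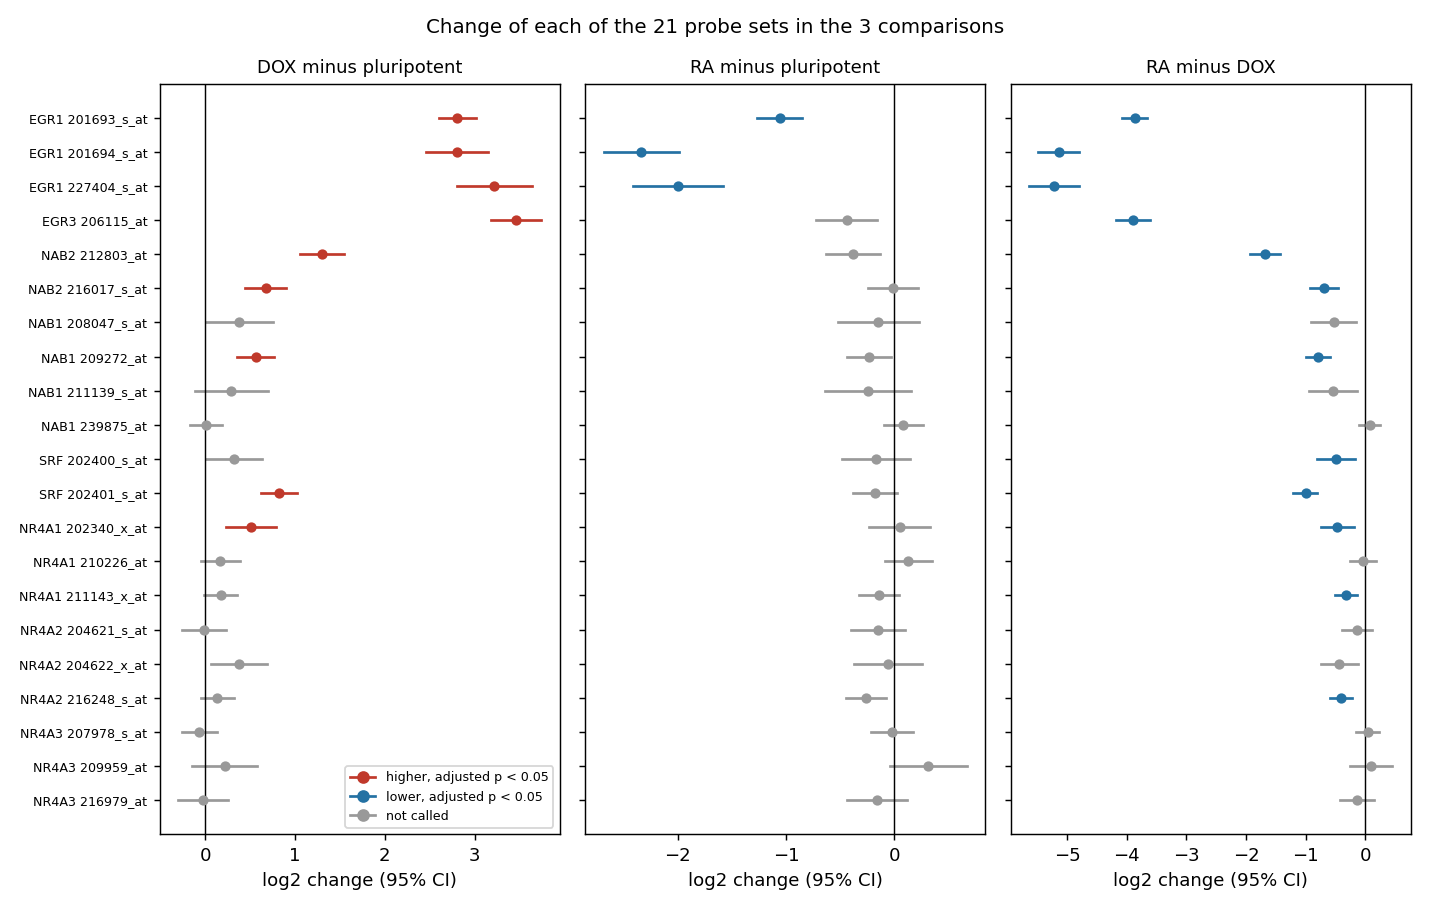
Log2 change of each of the 21 probe sets with its 95% confidence interval, for DOX minus pluripotent, RA minus pluripotent and RA minus DOX from left to right. Red points rose and blue points fell at an adjusted p under 0.05, and grey points were not called. Changes after DOX reach 3.46 for EGR3, EGR1 holds all 3 blue points for RA minus pluripotent, and among the NR4A2 and NR4A3 rows the 1 called point is NR4A2 216248_s_at at −0.40 for RA minus DOX.

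After 2 days of RA, EGR1 was the only one of the 8 genes called. Its 3 probe sets were the 3 that fell among 21, where 1.48% of all probe sets fell, and 0 rose (limma, with 0 also at an unadjusted p under 0.05). Among all probe sets 1.47% rose, so that 2.95% were called, and among all genes 4.84% were called. On the brightest probe set the fall ranked 8 from the lowest change of all 19775 genes. For 9 of the 21 probe sets the RA arrays lay below all pluripotent arrays and for 0 above, while arrays did not overlap for 16.7% of all probe sets. The median change of the 21 was −0.16, against 0.003 for all probe sets. The RA and DOX comparisons share the 3 pluripotent arrays.

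Set directly against each other, the treatments gave 12 of the 21 probe sets lower with RA than with DOX and 0 higher (limma, with 0 also at an unadjusted p under 0.05). DOX lasted 5 h and RA 2 days in medium without added FGF, so agent, time and medium cannot be told apart here. Among all probe sets 5.13% were lower and 7.11% higher, 12.2% in all. By the brightest probe set 6 of the 8 genes were lower, where 7.26% of all genes were lower and 10.7% higher, 18% in all. For 14 of the 21 probe sets the RA arrays lay below every DOX array, and for 26.4% of all probe sets the arrays did not overlap in either direction. EGR1 had the lowest change of all 19775 genes, −5.14 ± 0.16 on 201694_s_at, a 35.3-fold difference (adjusted p = 1.1e-08). EGR3 was at −3.90 (adjusted p = 1.53e-08), against RA arrays that all lay below the array median, near background, so the size of the difference is read as a minimum. NAB2 was at −1.68 (adjusted p = 3.43e-06), SRF at −1 (3.82e-05) and NAB1 at −0.79 (0.000211). NR4A1 was at −0.47 (adjusted p = 0.0356), a call kept in 1 of the 6 fits that left out a compared array, and at −0.32 on 211143_x_at (0.0293), kept in 2 of 6. The dimmer SRF probe set was at −0.49 (adjusted p = 0.0498) and kept its call in 1 of 6. For NR4A2 the probe set 216248_s_at was called, at −0.40 (adjusted p = 0.00913), with 3.86, 3.99 and 4.11 on the DOX arrays against 3.55, 3.69 and 3.52 on the RA arrays, all below the array median. No NR4A3 probe set was called.

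Genes around these factors were described from lists drawn up with earlier results of these data known, with 1 probe set per gene. Other immediate-early genes rose together after DOX: 19 of 19 measured were called higher and 0 lower (limma, 0 also at an unadjusted p under 0.05), where 4.67% of all genes rose, and 16 rose at least 2-fold. The median was 1.62, against −0.005 for all genes. FOS and JUN, partners in the AP-1 factor, rose by 3.20 and 3.10, the AP-1 member FOSL1 by 3.11, and EGR4, the remaining EGR gene, by 1.12. Without the third pluripotent array 18 were called higher. After RA 2 of the 19 were called higher and 3 lower, where 2.42% and 2.43% of all genes were. JUN fell by 1.40, MYC by 0.97 and IER3 by 0.74, while FOSL1 was 0.46 and IER2 0.32 higher, named here after their values were seen. EGR4 was at −0.18 and was not called. Without the third pluripotent array 1 gene was called higher after RA. With RA against DOX, 18 of the 19 were lower and 0 higher (limma, 0 also at an unadjusted p under 0.05). Over all genes, 7.26% were lower and 10.7% higher.

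Genes that SRF drives in the actin cytoskeleton rose after DOX in 7 of 9 cases and fell in 0 (limma, 0 also at an unadjusted p under 0.05). Over all genes, 4.67% rose and 7.4% fell. CNN1, encoding calponin, rose by 2.50, ACTA2, encoding smooth muscle actin, by 1.70, and TAGLN, encoding an actin-binding protein, by 1.60. After RA 4 of the 9 fell and 0 rose (limma, 1 higher at an unadjusted p under 0.05). Over all genes, 2.43% fell and 2.42% rose. TAGLN fell by 1.76, the vinculin gene VCL by 0.71 and the myosin light chain gene MYL9 by 0.65. The medians were 0.97 after DOX and −0.23 after RA. Some of these genes, such as ACTA2 and TAGLN, are also expressed in fibroblasts, whose marker values are given above.

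Most SRF cofactors did not pass the test. ELK1, the ternary complex factor that ERK phosphorylates, was at 0.03 after DOX (adjusted p = 0.887) and 0.02 after RA (0.954). Of 7 measured cofactors 2 rose after DOX, where 4.67% of all genes did, and 0 fell (limma, 1 lower at an unadjusted p under 0.05). They were FHL2, a LIM-domain protein that binds SRF, higher by 1.34, and MYOCD, higher by 0.52. With the third pluripotent array left out, 1 rose and 1 fell. FHL2 also fell after RA, by 0.31.

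Known targets of EGR proteins rose after DOX in 6 of 9 cases and fell in 0 (limma, 0 also at an unadjusted p under 0.05), where 4.67% of all genes rose, with a median of 0.75. Without the third pluripotent array 5 rose. THBS1, encoding the matrix protein thrombospondin, rose by 3.26, and the platelet-derived growth factor genes PDGFA and PDGFB by 1.19 and 1.08. After RA 1 of the 9 rose, VEGFA by 0.47, and 0 fell (limma, 1 lower at an unadjusted p under 0.05). Over all genes, 2.42% rose and 2.43% fell. Many of these targets also answer to other factors.

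Inhibitors that feed back on ERK signalling rose in 5 of 7 cases after DOX and 0 fell (limma, 0 also at an unadjusted p under 0.05). Over all genes, 4.67% rose and 7.4% fell. DUSP5 rose by 2.27, DUSP6 by 1.38 and SPRY4 by 0.87. DUSP5 and DUSP6 encode phosphatases that act on ERK. After RA the 7 inhibitors moved both ways, with 3 higher and 1 lower, where 2.42% of all genes rose and 2.43% fell. SPRED2 rose by 1.16, DUSP4 by 0.69 and SPRY2 by 0.54, while DUSP6 fell by 2.27.

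The RXR genes, whose products pair with NR4A1 and NR4A2 on DNA, gave 0 calls among 3 after DOX, where 12.1% of all genes were called. By limma 0 of them passed at an unadjusted p under 0.05 either. After RA, RXRA fell by 0.42 (adjusted p = 0.043), a call lost without the third pluripotent array, where 2.43% of all genes fell. Of CREB1 and its relatives and coactivators, 5 were measured. After DOX, CRTC3 fell by 0.65 and 0 rose, where 7.4% of all genes fell and 4.67% rose. After RA 0 were called, where 4.84% of all genes were (limma, 0 of the 5 also at an unadjusted p under 0.05).

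**Figure D4:**
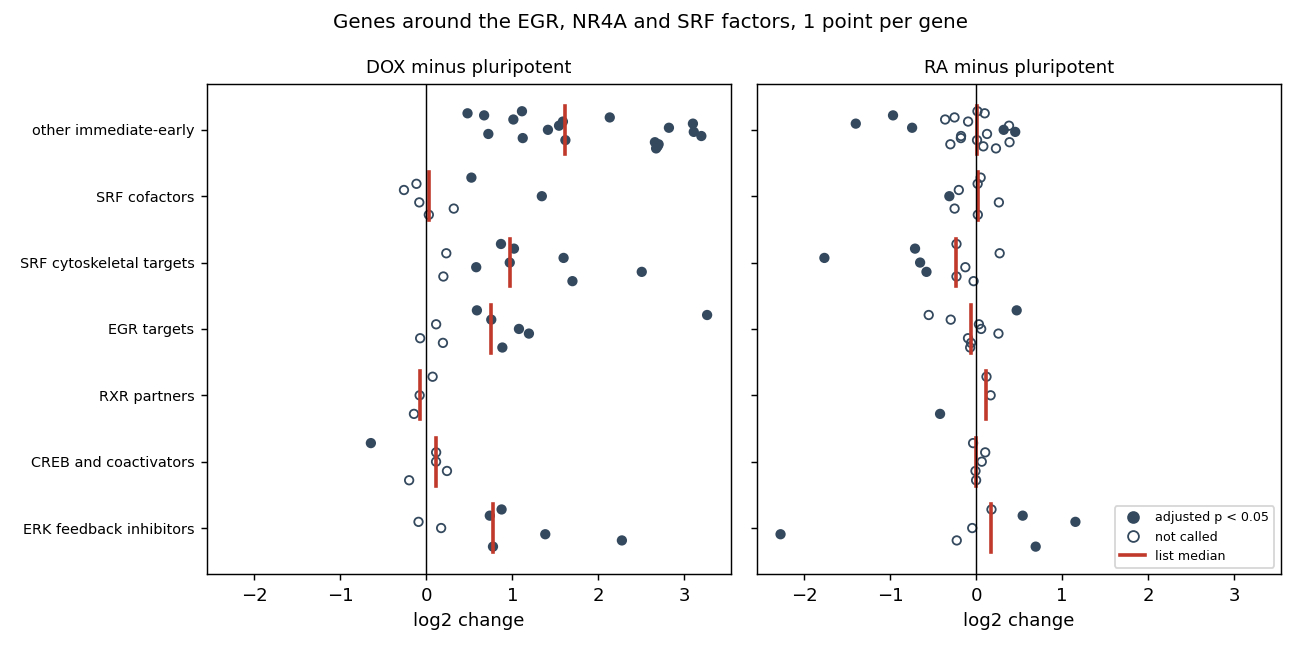
Log2 change of the genes in 7 lists after DOX (left) and after RA (right), 1 point per gene, with filled points called at an adjusted p under 0.05 and red bars at the list median. After DOX all 19 other immediate-early genes are filled and to the right of 0, and the SRF cytoskeletal targets have a median of 0.97. After RA the SRF cytoskeletal targets have a median of −0.23, and the medians of the other lists lie between −0.06 and 0.18. TAGLN, DUSP6 and JUN lie far to the left.

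The genes whose values over the 9 arrays lay closest to those of a member were found by the root mean square difference after subtracting each gene's own pluripotent mean. This was done for the 4 genes whose condition means spanned at least 1 on the log2 scale. JUN was nearest to EGR1, at 0.63, with a change of 3.10 after DOX and −1.40 after RA, followed by PHLDA2 (0.67) and ANXA1 (0.69). The measure grows with a gene's span, so distances of different members are not comparable. The change after RA of the 3 genes nearest to EGR1 lay between −1.95 and −1.21, against −2.34 for EGR1. RHOB (0.18), THBS1 (0.24) and INHBA (0.25) were nearest to EGR3. SAMD4A (0.12), LIMA1 (0.13) and the SRF cofactor gene FHL2 (0.13) were nearest to NAB2. ZYX, a focal adhesion gene on the SRF target list, was nearest to SRF itself, at 0.09, with CARD10 (0.10) and SLC35D1 (0.11) after it.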

How the data were processed

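RNA of 9 arrays was measured on 1-colour Affymetrix arrays. Per the submitters' processing notes, the deposited log2 values come from RMA in the package affy (version not given in the sources used here). That method subtracts background, equalises the distributions of arrays and combines the probes of a set, so that changes of dim probe sets are compressed and a shift shared by most genes is removed. Any pair of arrays held exactly equal values for 3.03% to 5.06% of probe sets. That the scale is log2 was read from the range. The arrays' number limits the precision.

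Of 54675 probe sets, 62 controls were left out. The annotation gives 1 gene for 41091 of the others, several for 1801 and none for 11721, and 41037 were matched to RefSeq by Entrez identifier. All 54613 were fitted with limma 3.58.1 in R 4.3.3 (lmFit and eBayes, 3 conditions, 6 residual and 4.64 prior degrees of freedom), with Benjamini-Hochberg adjustment over all of them. Genes in lists and ranks are represented by their brightest probe set. The fit was run on simulated data with independent noise on each array and known changes added. Such a run cannot show whether the real replicate arrays are independent. Arrays were grouped by their labels.

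Labels number the arrays 1 to 3 in each condition. Deviations of same-numbered DOX and pluripotent arrays from their condition means correlated at 0.103 to 0.168, and those of unlike-numbered ones at −0.196 to 0.057. For RA and pluripotent arrays the values were −0.051 to 0.275 and −0.28 to 0.078. The labels do not say that a number marks a shared culture or day, and these correlations do not show it. The main fit therefore used no pairing, and the replicate number as a block was an alternative. Named genes are all members, up to 3 called genes with the largest change in each list, ELK1, FOS, JUN, EGR4, the treatment genes and the 3 nearest genes of a member. Members and lists were chosen with earlier results of these data known. Alternatives are given at the end.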

Additional observations from a re-analysis of the deposited data

How the results depend on the processing

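Of 63 values (21 probe sets in 3 comparisons), 24 were called, and 20 of these kept their call and direction under every alternative run for them. The 4 that lost it somewhere are NR4A1 202340_x_at after DOX, and, with RA against DOX, both x_at probe sets of NR4A1 and SRF 202400_s_at. Of the 39 that were not called, 5 passed somewhere. No called value changed sign. The alternatives were 1 probe set or the mean per gene, probe sets above the median only, eBayes with trend and robust options, only the 2 compared conditions, further quantile normalization, centring, array weights, the replicate block and leaving out each array. The number of member probe sets that rose after DOX ran between 8 and 10, and the number that fell after RA between 3 and 4. Over all probe sets, leaving out 1 array moved the number lower after DOX (2466) to between 1279 and 3028. After RA it moved the number higher (802) to between 495 and 625 and the number lower (809) to between 501 and 752. With the replicate block, 9 member probe sets rose after DOX and 0 fell, over all probe sets 1810 rose and 2670 fell, and no call on a member changed. Omission of the third pluripotent array from the list counts was chosen after seeing the data. No detection calls were used, and signal near background limits what can be said of NR4A2, which has 1 called probe set in RA against DOX, and of NR4A3, which has none.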

Other observations

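The 2 CArG boxes of EGR1 and SRF were set beside the same motif over all genes, a look taken after the values were seen and given without a test. Of 15384 genes with both a 250-base window and a probe set, 4.58% rose and 7.89% fell after DOX. Of the 239 genes with at least 1 CArG box, 13.0% rose (31 genes) and 7.95% fell. EGR1 and SRF, whose values prompted the look, are among the 239. After RA the shares that rose were 2.51% of the CArG genes and 2.37% of all these genes, and the shares that fell were 8.79% (21 genes) and 2.5%.

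Besides EGR1 and SRF, 5 genes had 2 CArG boxes in a window. Smooth muscle gamma actin, ACTG2, rose by 1.21 ± 0.09 after DOX (adjusted p = 1.06e-05) and fell by 1.22 after RA (adjusted p = 2.07e-05), so it followed the signs of EGR1. AGPAT1, CUL4B, ING4 and ZNF548 were at −0.10, −0.34, −0.27 and 0.14 after DOX, and none of them was called in either comparison. What sets these genes apart from EGR1, SRF and ACTG2 was not tested.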
